A study of Mus musculus with 16 samples.

Results

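Of the 55471 genes in the count table of mouse skeletal muscle, 57 code for respiratory complexes II to V, for cytochrome c or for factors that carry a Cox name and help to build complex IV. They were chosen by symbol (Sdha to Sdhd, Uqcr genes, Cyc1, Cycs, Cox genes followed by a digit, and Atp5 genes), without names that mark a pseudogene, and had to reach 10 counts in at least 6 of 16 libraries. The pattern matched 61 genes, and Cox20b, Cox7b2, Cox8c and a second identifier named Atp5o did not reach that count. The members comprised 4 genes of complex II, 9 of complex III, Cycs, 17 of complex IV, 9 assembly factors of complex IV and 17 of complex V. Some of the genes counted under IV and V by their names are no plain subunits: Cox7a2l is known as a factor of supercomplexes, Cox6c2 is a retrocopy of Cox6c, and Atp5s is named a coupling factor. Usmg5, another subunit of complex V, falls outside the symbol pattern and was not counted as a member.

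Complex II (succinate dehydrogenase) feeds electrons from the TCA cycle to ubiquinone, complex III passes them to cytochrome c, and complex IV (cytochrome c oxidase) hands them to oxygen. Complexes III and IV pump protons across the inner mitochondrial membrane, and complex V (ATP synthase) uses the returning protons to make ATP. Skeletal muscle replaces several small subunits of complex IV with muscle isoforms of their own. Complexes III, IV and V also hold subunits encoded by mitochondrial DNA, whose mRNA could not be described here because all 37 mitochondrial rows of the table, 6 subunit genes of these complexes among them, had a summed count of 0.

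Nuclear respiratory factor 1 (NRF-1) and GA-binding protein (GABP) are textbook regulators of nuclear genes of the respiratory chain, so their core motifs were searched on both strands in the 250 bases before the RefSeq start of each gene (GRCm38.p6). Promoters were matched for 43 of the 57 members. The NRF-1 core CGCANGCGC was found in 9 of the 43 (20.9%), against 5.88% of all 27025 genes with a promoter, and the GABP core CCGGAAGT was found in 5 (11.6%), against 3.23% of all genes. The 9 were Atp5c1, Atp5g2, Atp5h, Atp5k, Atp5l, Cox6a1, Cycs, Sdha and Sdhd, and the 5 were Atp5h, Cox10, Cox16, Uqcr11 and Uqcrh, with Atp5h in both lists. A match describes the letters of this window and is no evidence of binding. Sdha and Sdhd are shown because they code for subunits of the same enzyme and ran in opposite directions between the libraries described below, Cycs because it had the largest positive body weight slope of the members, and Uqcrh as an example of the GABP core, which reads in reverse on this strand. Capitals mark the core, and each stretch ends before the gene span of the deposited table.
Sdha (chr13:74350281-74350377, minus strand, 2 of its 3 NRF-1 cores): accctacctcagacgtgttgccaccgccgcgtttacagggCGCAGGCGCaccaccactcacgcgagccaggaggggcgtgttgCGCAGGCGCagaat
Sdhd (chr9:50603879-50603967, minus strand): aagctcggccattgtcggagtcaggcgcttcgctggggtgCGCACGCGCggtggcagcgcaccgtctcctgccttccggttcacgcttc
Cycs (chr6:50566582-50566670, minus strand): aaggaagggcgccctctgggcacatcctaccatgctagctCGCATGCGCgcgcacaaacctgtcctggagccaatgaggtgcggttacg
Uqcrh (chr4:116075071-116075121, minus strand): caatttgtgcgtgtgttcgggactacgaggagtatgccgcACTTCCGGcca

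The libraries came from male mice of the B6.129-Npr1tm1Gar/J line backcrossed to C57BL/6J, 10 labelled Npr1+/- and 6 labelled Npr1+/+ littermate controls, 1 mouse per library. Npr1 codes for the receptor of atrial natriuretic peptide, and the heterozygous loss was in the whole animal and not in muscle alone. Every mouse was 12 weeks old when a high-fat diet (60% of kcal as lipids) began and stayed on it for 12 weeks, and the mice came from 4 cages and weighed 36.5 to 54 g. The labels give the tissue as skeletal muscle without naming the muscle.

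Library totals ran from 15273472 to 59682677 counts, of which the members took 2.24% (Npr1+/- replicate 7) to 3.96% (Npr1+/- replicate 9). Npr1 itself did not separate the labels: its CPM (counts relative to the library total, scaled by TMM) ran from 9.83 over a median of 12.0 to 22.2 in the 10 Npr1+/- libraries and from 10.4 over 12.4 to 13.4 in the 6 Npr1+/+ libraries, and the fitted log2 fold change was 0.09 (standard error 0.20). Directions below are therefore between libraries as labelled. All 8 markers of skeletal muscle fibres were detected, with a summed level of 80747 to 141747 CPM, and the 7 slow fibre markers summed to 117 to 258 CPM. Of the other lists, adipocyte markers summed to 303 to 1215 CPM, endothelial to 114 to 428, erythrocyte to 88.0 to 510, tendon to 202 to 596, smooth muscle to 96.3 to 221, macrophage to 15.1 to 48.5 and brown adipocyte markers to at most 2.83 CPM. The 4 liver markers reached 70.7 CPM in Npr1+/+ replicate 5 and at most 5.48 CPM elsewhere. In bulk tissue, fewer cells of a type and less RNA per cell cannot be told apart.

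Between genes, levels can be compared only per length, so CPM was divided by the gene length in the deposited table (CPM per kilobase). That length covers all exons of a gene and is several times that of the principal transcript for some members, so orders that turned with the principal transcript are named. In complex II, the membrane anchor Sdhd had the highest level at 432 ± 120 CPM per kilobase (SD, n = 16) and the other anchor, Sdhc, the lowest at 115 ± 20.2. The catalytic subunits Sdhb, which holds iron-sulfur clusters, and Sdha, which binds FAD and succinate, had 395 ± 71.6 and 164 ± 68.5 CPM per kilobase. Per principal transcript Sdhb, at 775 ± 140, stood above Sdhd, at 432 ± 120. Sdha had the widest spread of the 4 relative to its level. In complex III the 9 means ran from 301 ± 67.2 CPM per kilobase for the core subunit Uqcrc1 to 662 ± 199 for the small subunit Uqcr10, and per principal transcript from 521 ± 113 for the core subunit Uqcrc2 to 1852 ± 745 for Uqcrq. Cycs had 138 ± 52.0 CPM per kilobase.

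Complex IV covered the widest range of levels. By deposited length the muscle isoforms led, with Cox6a2 at 2019 ± 507, Cox8b at 1218 ± 300 and Cox7a1 at 1119 ± 366 CPM per kilobase (SD, n = 16). Cox6b2, an isoform known from testis, was lowest at 0.507 ± 0.181. Per principal transcript Cox6a2 stayed first and Cox6b2 last, but the ubiquitous Cox4i1 (1746 ± 616) and the subunit Cox6c (1578 ± 453) stood above Cox7a1 (1524 ± 498) and Cox8b (1218 ± 300). The assembly factors stood below most subunits, from 1.67 ± 0.383 CPM per kilobase for the copper chaperone Cox17 to 51.6 ± 12.4 for Cox14, and per principal transcript from 4.14 ± 1.18 for Cox20 to 166 ± 39.9 for Cox14.

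In complex V, the subunits of the catalytic F1 head differed. The alpha, beta and gamma subunits Atp5a1, Atp5b and Atp5c1 had 994 ± 158, 881 ± 94.7 and 897 ± 253 CPM per kilobase, but 1261 ± 200, 1949 ± 209 and 1468 ± 415 per principal transcript, so their order rests on the length used. The delta and epsilon subunits Atp5d and Atp5e had 277 ± 51.7 and 218 ± 60.7 by deposited length and, in the other order, 574 ± 107 and 910 ± 253 per principal transcript. By deposited length the lowest member was Atp5l, a membrane subunit, at 4.92 ± 1.64 CPM per kilobase. Per principal transcript it had 58.3 ± 19.5 and Atp5s was lowest at 19.1 ± 4.38. Of the Atp5l transcript, 84.8% of the 52-base stretches also occur in transcripts of 14 other genes. Of the 57 members, 33 shared at least 1 stretch of read length (52 bases) with another gene and 18 shared over 20% of them, among them Atp5g2 (100%), Cox16 (88.7%), Cox20 (66.7%), Atp5h (65.5%), Atp5g1 (65.5%) and Cox7c (52.8%). How fragments that fit several genes were counted is not given in the sources used here, so the levels of these genes are uncertain.

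**Figure D1:**
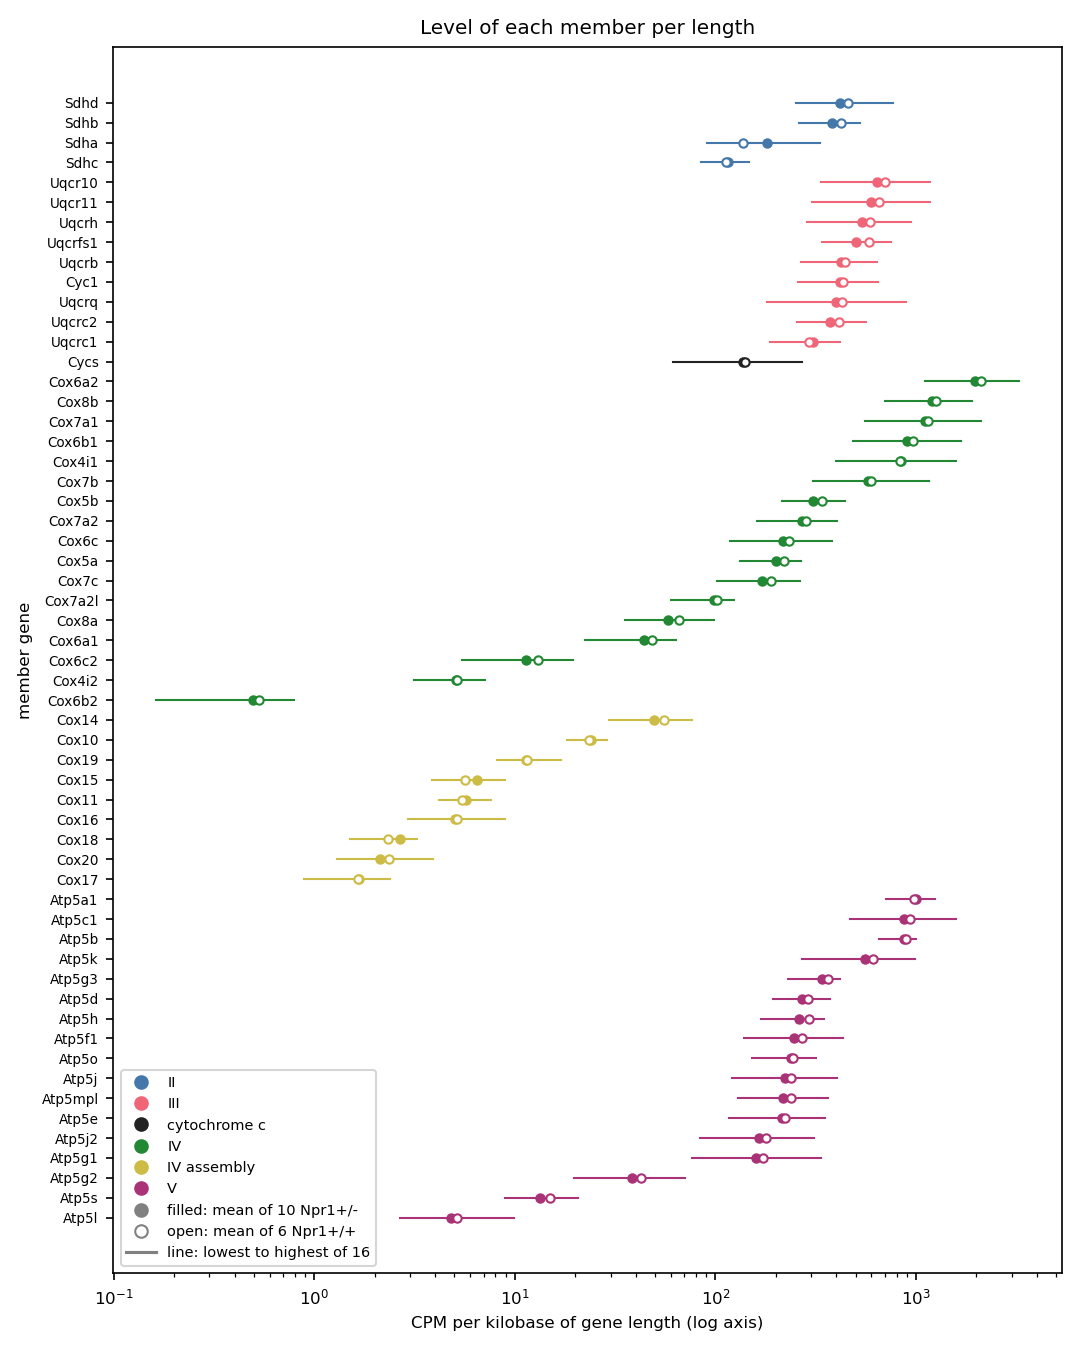
Level of the 57 members as CPM per kilobase of deposited gene length (log axis), with the mean of the 10 Npr1+/- libraries filled, that of the 6 Npr1+/+ libraries open and a line from the lowest to the highest of the 16 libraries. Cox6a2 is highest at 2019 and Cox6b2 lowest at 0.507 CPM per kilobase, and the assembly factors lie below most subunits.

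Isoform shares, each taken within a library and per kilobase, did not depend on scaling between libraries. The muscle isoform Cox6a2 held 97.8 ± 0.328% (SD, n = 10) of Cox6a in the Npr1+/- libraries and 97.8 ± 0.113% (SD, n = 6) in the Npr1+/+ libraries. Cox8b held 95.3 ± 0.538% of Cox8 against 95.0 ± 0.471%, and Cox7a1 held 79.8 ± 1.98% of Cox7a against 80.0 ± 1.04%. The ubiquitous Cox4i1 held 99.4 ± 0.160% against 99.4 ± 0.194% of Cox4, and Cox6b1 held 99.9 ± 0.0371% against 99.9 ± 0.0163% of Cox6b. The muscle forms of Cox6a, Cox7a and Cox8 were thus the main forms in every library, with Cox7a the family where the ubiquitous form kept the largest part.

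The c-ring of ATP synthase is built from a protein that 3 genes encode with different import signals. Atp5g3 held 64.4 ± 5.83% of the c-ring mRNA per kilobase in the Npr1+/- libraries and 63.1 ± 3.01% in the Npr1+/+ libraries, Atp5g1 held 28.6 ± 5.13% and 29.5 ± 2.40%, and Atp5g2 held 7.02 ± 0.836% and 7.32 ± 0.733%. The Atp5g1 share was lowest in Npr1+/- replicate 7 (22.2%) and highest in Npr1+/- replicate 9 (41.1%), the same libraries that marked the extremes of most members. By counts not divided by length, Atp5g1 (48.3%) and Atp5g3 (47.7%) were nearly equal on average, and per principal transcript Atp5g1 held 51.0 ± 5.77% and 52.4 ± 2.76% and Atp5g3 43.2 ± 5.99% and 41.6 ± 3.08%. The order of Atp5g1 and Atp5g3 thus turned with the length used. Atp5g2 (100%) and Atp5g1 (65.5%) also share 52-base stretches with other genes, whereas Atp5g3 (0%) does not. How fragments that fit several genes were counted therefore bears on all 3 shares. No difference between the labels in the 8 shares passed a two-sided exact permutation test (p = 0.219 to 0.994, adjusted p = 0.932 to 0.994 by Benjamini-Hochberg over 8 tests).

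The mRNA of most members rose and fell together from mouse to mouse. As the mean over the 57 members of log2(CPM + 1) less the mean of each gene, the libraries ran from -0.58 in Npr1+/- replicate 7, -0.53 in Npr1+/- replicate 6 and -0.35 in Npr1+/- replicate 5 to 0.54 in Npr1+/- replicate 9. The 6 Npr1+/+ libraries lay between -0.11 (replicate 3) and 0.27 (replicate 1). Both ends of the range were thus libraries labelled Npr1+/-, and the Npr1+/+ libraries lay inside it. Of the 57 members, 50 had their lowest CPM in 1 of Npr1+/- replicates 5, 6 and 7 and 39 had their highest in Npr1+/- replicate 9. These are 87.7% and 68.4% of the members, beside 31.3% and 16.98% of all 14331 genes tested and 59.9% and 35.0% of the 3507 genes with principal transcripts under 1500 bases, a class that holds 44 of the members. Of those 44, 97.7% and 75.0% had these extremes. Between Npr1+/- replicates 7 and 9, 50 members were higher in replicate 9, with a median ratio of 2.59 over all members, beside 0.892 over all genes, and of 2.76 over the 44 short members, beside 1.81 over all genes under 1500 bases.

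**Figure D2:**
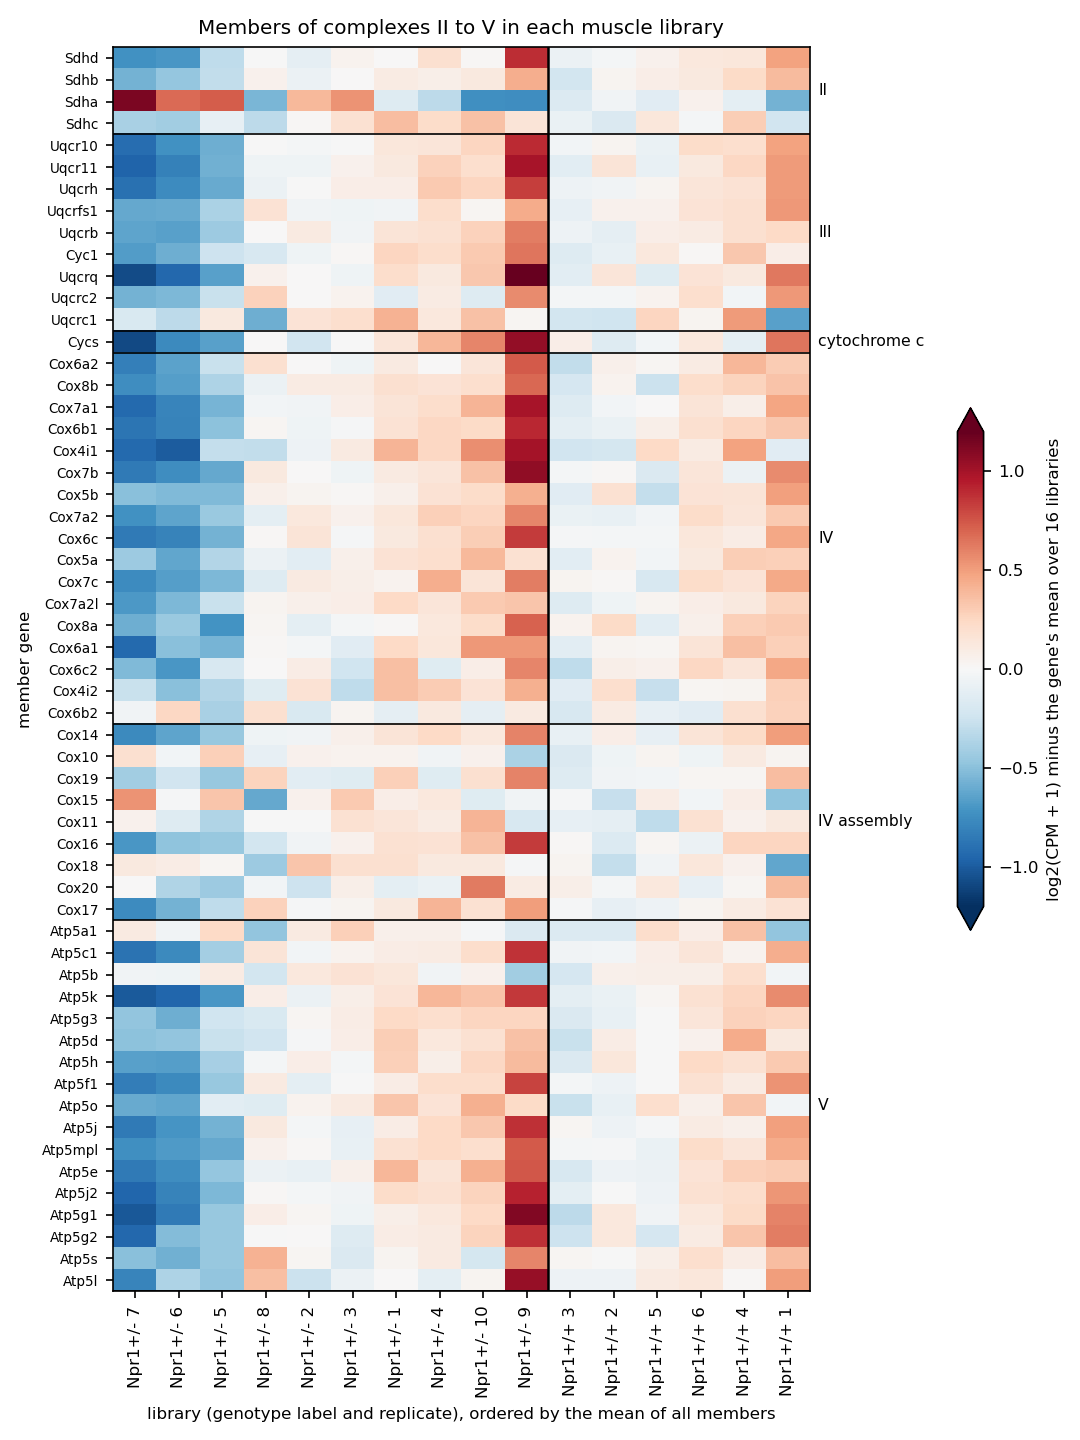
Each row is a member grouped by complex and each column a library, ordered within its label by the mean of all members; the colour is log2(CPM + 1) minus the mean of the gene over 16 libraries. Most rows are low in Npr1+/- replicates 7, 6 and 5 and high in replicate 9, while the row of Sdha runs the other way.

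The means of the complexes did not span the same range. The mean of complex III members spanned a 2.66-fold range over the 16 libraries, that of complex IV 2.47-fold and that of complex V 2.41-fold, whereas complex II spanned 1.34-fold and the assembly factors of complex IV 1.40-fold. Cycs alone spanned a ratio of 4.38 on the same scale. Single members varied more alike: the median SD of a member over the libraries, on the log2 scale, was 0.33 in complex II, 0.34 in complex III, 0.37 in complex IV, 0.41 in complex V and 0.28 for the assembly factors. Within complex II, members moved in opposite directions. Sdhb ran from 586 CPM in Npr1+/- replicate 7 to 1177 in Npr1+/- replicate 9, and Sdhd from 310 to 948 CPM in the same libraries, whereas Sdha ran from 376 CPM in replicate 9 to 1375 in replicate 7. Sdha (chromosome 13, 74322254 to 74350280, GRCm38) shares no 52-base stretch with another gene, so its counts are not subject to that doubt.

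Ratios of subunits of the same complex within a library differed in their range and in the libraries at its ends. Sdha over Sdhb, per kilobase, ran from 0.173 over a median of 0.435 to 1.27 in the Npr1+/- libraries and from 0.203 over 0.354 to 0.409 in the Npr1+/+ libraries, a 7.34-fold range over all 16 from Npr1+/- replicate 9 to Npr1+/- replicate 7. The core subunits Uqcrc1 over Uqcrc2 of complex III spanned 3.32-fold between other libraries, from 0.343 in Npr1+/+ replicate 1 to 1.14 in Npr1+/- replicate 1. In complex IV, Cox4i1 over Cox5a spanned 2.48-fold, from 2.76 in Npr1+/- replicate 7 to 6.86 in Npr1+/- replicate 9, and in complex V the F1 gamma over beta subunits (Atp5c1 over Atp5b) 4.39-fold, from 0.550 in Npr1+/- replicate 7 to 2.41 in Npr1+/- replicate 9. The F1 alpha over beta subunits (Atp5a1 over Atp5b) spanned 1.61-fold, from 0.825 in Npr1+/+ replicate 1 to 1.33 in Npr1+/- replicate 9. These ratios were chosen after the values were seen and are descriptions.

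The 7 members that were not higher in Npr1+/- replicate 9 than in replicate 7 were Sdha, Cox15, Cox10, Atp5b, Atp5a1, Cox11 and Cox18. Of these, Sdha, Cox15, Cox10, Atp5b and Atp5a1 have principal transcripts of 1500 bases or more, as 13 of the 57 members do. Over all genes tested, transcripts under 1000 bases (1896 genes) and those of 4000 bases or more (3751 genes) also parted between libraries: the mean of the short genes less that of the long ones, as centred log2(CPM + 1), was -0.92 in Npr1+/- replicate 7, -0.72 in replicate 6, -0.54 in replicate 5 and 0.65 in replicate 9, and ran from -0.08 to 0.37 in the Npr1+/+ libraries. The libraries with low member levels were thus those where short transcripts were low across the table. Endothelial markers (4 of 4 detected) were highest in Npr1+/- replicates 7 (428 CPM), 6 (379) and 5 (274) and lowest in replicate 9 (114), and smooth muscle markers (3 of 3) stood at 220, 221 and 213 CPM in replicates 7, 6 and 5 and at 108 in replicate 9. Erythrocyte markers stood at 88.0 CPM in replicate 7, 154 in replicate 5, 282 in replicate 6 and 510 in replicate 9. Macrophage markers had 15.1, 17.6, 29.8 and 48.5 CPM in the same order. Adipocyte markers were lowest in replicate 7 (303 CPM) and stood at 384 in replicate 5, 507 in replicate 6 and 878 in replicate 9. Skeletal muscle fibre markers were highest in replicate 7 (141747 CPM) and had 112152 CPM in replicate 9. Tendon markers stood at 351, 247, 596 and 473 CPM in replicates 7, 5, 6 and 9, and slow fibre markers at 147, 161, 236 and 258. The sums hide differences within a list. Of the fibre markers, Myh4 averaged 22277 CPM in the Npr1+/- and 10550 in the Npr1+/+ libraries. Ckm had 25499 and 25419, while Mylpf and Mb were lower in the Npr1+/- libraries. Of the smooth muscle markers, Myh11 averaged 37.0 and 22.2 CPM, Acta2 115 and 126 and Tagln 10.8 and 11.4. The part of transcript length in these sums, or of transcript length or cell content in the members' levels, was not tested.

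The design asks whether muscle of mice labelled Npr1+/- differed from that of their littermates, with cage and body weight as covariates. No member passed the test between the labels: 0 of 57 had an adjusted p under 0.05 (quasi-likelihood F test of edgeR, Benjamini-Hochberg over 14331 genes), where 0 genes (0%) passed at all. At an unadjusted p under 0.05 there were 0 members, against 151 genes (1.05%) of the table. The adjusted p was 0.99999 for every member. By DESeq2, 0 members and 6 genes passed. The groups overlapped in CPM for all 57 members, and did not overlap for 0.00698% of all genes (1 gene).

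Fold changes were smaller than their standard errors for all members but Atp5a1 and Atp5d. The log2 fold changes of the members ran from -0.19 (Atp5d, standard error 0.19) to 0.19 (Cycs, standard error 0.30), with a median of -0.05 beside -0.01 over all genes, and 43 of 57 were below 0 beside 51.6% of all genes. The count of members below 0 was 3 of 4 in complex II, 8 of 9 in complex III, 13 of 17 in complex IV, 5 of 9 for the assembly factors and 14 of 17 in complex V, and the medians were -0.06, -0.05, -0.05, -0.01 and -0.05. Of the 44 members with principal transcripts under 1500 bases, 75.0% were below 0, beside 62.0% of all tested genes of that length, and both medians were -0.05. With a correction for gene length in each library 31 members were below 0 and the median was -0.01. With the label alone the median was -0.09 and 47 members were below 0, with body weight as the only covariate -0.05 and 40, with cage only -0.19 and 51, and with a block for replicate number in place of cage -0.31 and 52. Npr1+/- replicates 7 to 10 share their number with no other mouse, so they add nothing to the estimate with the block. The counts moved both ways with single libraries. Without Npr1+/+ replicate 5 or Npr1+/- replicate 9, 50 members were below 0 and the median was -0.14, and without Npr1+/- replicate 7, 49 were below 0 and it was -0.10. Without Npr1+/- replicate 5 or 6, 22 members were below 0 and the median was 0.05, and without Npr1+/+ replicate 4, 18 were below 0 and it was 0.04. With Npr1+/- replicates 5, 6, 7 and 9 left out together, chosen after their values were seen, 24 members were below 0 and the median was 0.03.

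**Figure D3:**
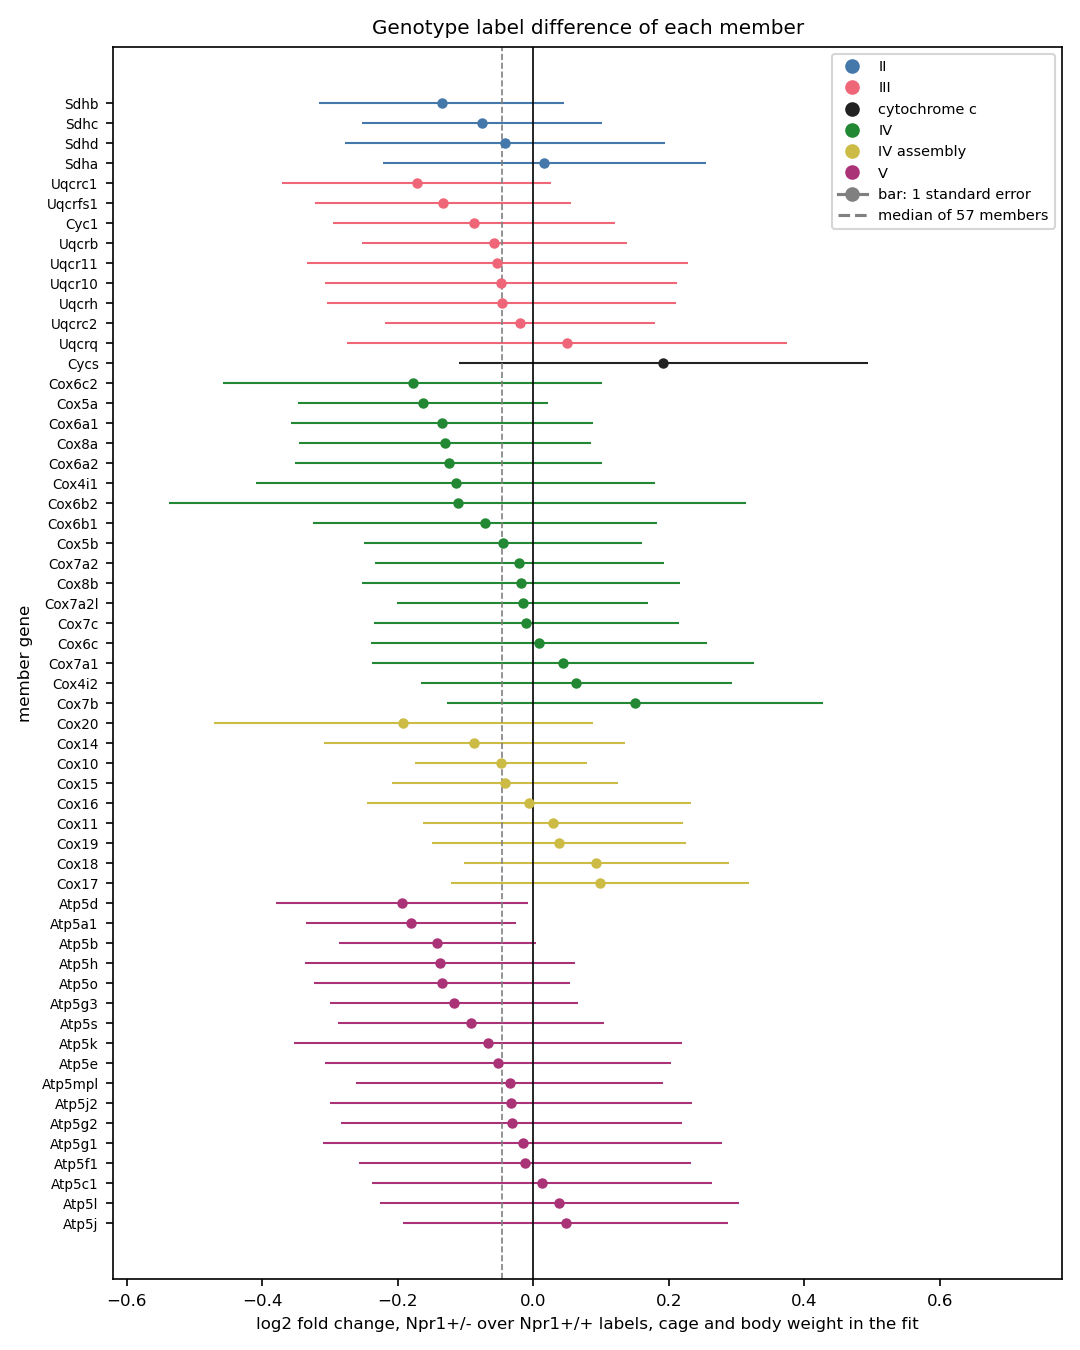
Log2 fold change of each member between libraries labelled Npr1+/- and Npr1+/+ with cage and body weight in the fit; bars are 1 standard error and the dashed line is the median of the 57 members (-0.05). Values run from -0.19 for Atp5d to 0.19 for Cycs and none passed the adjusted threshold.

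The member with the smallest p differed by complex. Sdhb ran from 586 over a median of 888 to 1177 CPM in the Npr1+/- libraries and from 745 over 934 to 1134 in the Npr1+/+ libraries. Its range in the Npr1+/+ libraries lay within that of the Npr1+/- libraries, and its log2 fold change was -0.14 (standard error 0.18, edgeR p = 0.465). Uqcrc1 ran from 807 over 1323 to 1620 CPM against 771 over 1145 to 1726, and its fitted log2 fold change of -0.17 (standard error 0.20) had the opposite direction to its medians, which carry no covariates. The complex IV subunit Cox5a, which faces the matrix, ran from 278 over 427 to 561 CPM against 392 over 451 to 525, with -0.16 (standard error 0.18). Cox20, a chaperone of the Cox2 subunit, ran from 1.15 over 1.80 to 3.46 CPM against 1.71 over 1.998 to 2.78, with -0.19 (standard error 0.28).

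Atp5a1 had the smallest p of all members in this comparison. It ran from 2220 over 3208 to 3746 CPM in the Npr1+/- libraries and from 2215 over 2999 to 3923 in the Npr1+/+ libraries, so the groups covered almost the same range. Its log2 fold change was -0.18 (standard error 0.15, edgeR p = 0.262), against the direction of its medians. The fitted value was 0.03 with the label alone and 0.01 with cage only or with a block for replicate number in place of cage. Cycs ran from 209 over 441 to 917 CPM against 397 over 449 to 692, again with the Npr1+/- libraries on both sides of the Npr1+/+ libraries. Its fitted 0.19 turned to -0.04 with the label alone, -0.15 with cage only and -0.25 with the block.

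Within cages, the direction was not shared. The median over members of the log2 difference, Npr1+/- less Npr1+/+, was -0.26 in cage 675 (2 against 2 mice, 47 of 57 members lower), 0.13 in cage 676 (3 against 1, 11 lower), -0.65 in cage 677 (1 against 2, 49 lower) and -0.15 in cage 678 (4 against 1, 49 lower). Cage 675 holds Npr1+/- replicate 6 and the only Npr1+/- mouse of cage 677 is replicate 5. Cage 678 holds both Npr1+/- replicate 7 and replicate 9, the lowest and the highest library. No test was run within single cages.

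Of 28 genes tested from a list of assembly and related factors of complexes II to V outside the symbol rule, 0 passed in this comparison. Their log2 fold change was below 0 for 19 (67.9%, beside 51.6% of all genes) and above 0 for 9, with a median of -0.04. Without Npr1+/- replicate 5, Npr1+/- replicate 6 or Npr1+/+ replicate 4, 13, 10 and 10 were below 0 and the median turned to 0.02, 0.04 and 0.03, whereas without Npr1+/- replicate 9 or Npr1+/+ replicate 5, 25 and 24 were below 0 and the median was -0.06 and -0.10. The smallest p-values were those of Surf1, an assembly factor of complex IV, at -0.18 (standard error 0.14, edgeR p = 0.213) and of Oxa1l, the insertase of the inner membrane, at -0.12 (standard error 0.13).

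Body weight differed among the mice and stands in the same fit. Here, too, 0 of 57 members and 0 genes (0%) passed the adjusted threshold, but the slopes of the members were mostly positive: 46 of 57 were above 0, beside 47.3% of all genes, with a median of 0.37 log2 units per 10 g beside -0.03 over all genes. All 17 genes of complex IV and 8 of 9 of complex III had slopes above 0, as had 13 of 17 in complex V, 5 of 9 assembly factors and 2 of 4 in complex II, with medians of 0.38, 0.39, 0.48, 0.21 and 0.05. Without 1 mouse these medians ran from 0.14 to 0.79 in complex IV, from 0.20 to 0.83 in complex III, from 0.21 to 0.99 in complex V, from 0.06 to 0.57 for the assembly factors and from -0.14 to 0.35 in complex II. The lowest values were those without Npr1+/- replicate 7 (for the assembly factors without Npr1+/+ replicate 1) and the highest those without Npr1+/- replicate 3. With a block for replicate number in place of cage, 3 of 57 slopes were above 0 and the median was -0.20. Npr1+/- replicates 7 to 10, the lightest mouse among them, stand alone in their blocks and add nothing to that slope. Marker lists also had slopes on one side in the fit with cage: all 5 erythrocyte markers tested (median 0.86) and 4 of 4 macrophage markers (0.79) were above 0, as were 5 of 7 adipocyte markers (0.67), while 0 of 4 endothelial markers (-0.76) and 2 of 8 skeletal muscle fibre markers (-0.57) were. The part of cell content in the members' slopes was not tested. At an unadjusted p under 0.05 there were 5 members (8.77%), a smaller share than the 17.1% of all genes. These were Sdha (-1.04, standard error 0.31, edgeR p = 0.00366, adjusted p = 0.245), Cox15 (-0.53), which makes haem A, Atp5a1 (-0.51), Atp5j (0.65) and Cycs (0.84). In complexes III and IV, the smallest p-values were those of Uqcrq (0.71, standard error 0.41) and Cox7b (0.73, standard error 0.35).

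**Figure D4:**
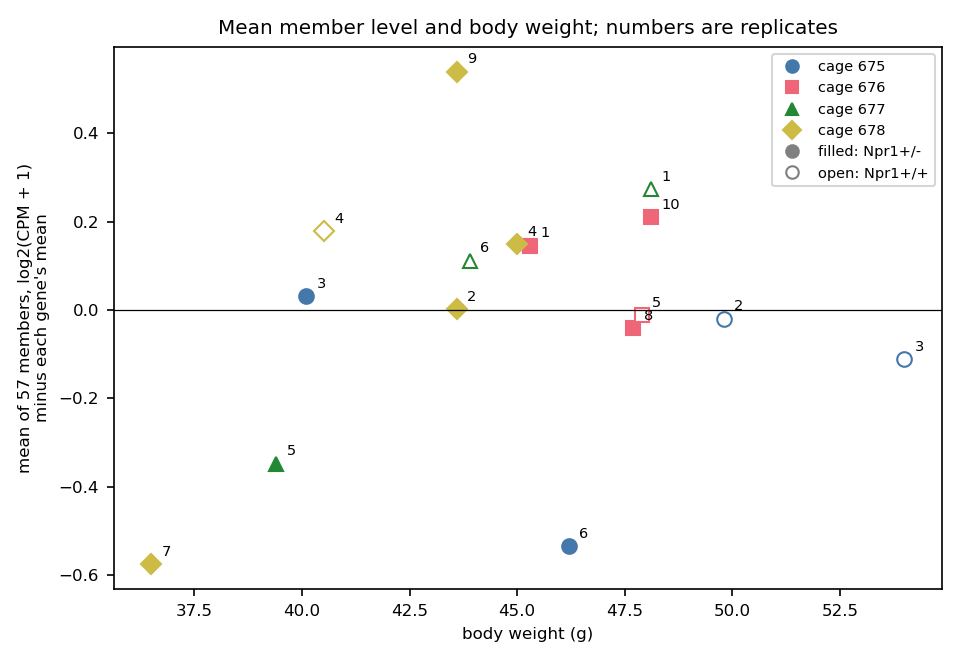
Mean over the 57 members of log2(CPM + 1) less the mean of each gene, against body weight in g; numbers are replicates, colours and shapes are cages, filled points are labelled Npr1+/- and open points Npr1+/+. The lightest mouse (36.5 g, Npr1+/- replicate 7) has the lowest mean at -0.58, and Npr1+/- replicate 9 at 43.6 g the highest at 0.54.

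Slopes above 0 made up a larger share of the short members than of the long ones. Cycs, with the largest positive slope, is a long one, with a principal transcript of 3123 bases. Of the 44 members under 1500 bases, 40 (90.9%) had a slope above 0, beside 72.9% of the 3507 tested genes of that length. Of the 13 longer members, 6 (46.2%) had a slope above 0, beside 39.1% of 10811 genes. The median slope of the short members was 0.40 and that of all short genes 0.25. With a correction for gene length in each library the median slope over members was 0.15 and 40 were above 0, while that of the assembly factors turned to -0.08. With the 4 libraries named above left out, the median over members was -0.01 with 26 above 0. Those 4 were picked for the lowest and highest member levels, so leaving them out takes away part of the spread that the slope describes. Without Npr1+/- replicate 7, the lightest mouse, the median slope over members was 0.16.

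Leaving out Npr1+/- replicate 3 changed the calls. This mouse weighed 40.1 g, the lightest of cage 675, where the other mice weighed 46.2 to 54 g. Without it, 27 of 57 members passed the same edgeR test after Benjamini-Hochberg adjustment, beside 3158 of 14284 genes (22.1%), and the median slope was 0.80 log2 units per 10 g. Of the 27, 26 were above 0, beside 8.44% of all genes called above 0, and only Sdha was below 0. The called share of all genes under 1500 bases, a class that holds 44 of the members, was not computed. By complex, 7 of 9 members of complex III, 7 of 17 of complex IV, 8 of 17 of complex V, 2 of 9 assembly factors, 2 of 4 of complex II and Cycs passed. No member passed in any of the other 15 fits without 1 library.

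The largest slope among these calls was that of Cycs at 1.605 log2 units per 10 g (standard error 0.35, adjusted p = 0.00807 by edgeR and Benjamini-Hochberg), and Sdha had -1.39 (standard error 0.31, adjusted p = 0.00928). In each complex the member with the smallest p among those above 0 was Sdhd (0.94), Uqcrh (1.17), Cox7c (1.08), Cox17 (0.99) and Atp5j (1.22). Cox7c, Cox17 and Cycs share 52.8%, 52.4% and 28.2% of their 52-base stretches with other genes. In this fit the short genes of the whole table had a median slope of 0.50 and the long ones -0.22, and the short and long members 0.84 and 0.18. Endothelial markers had a median slope of -1.18 there (3 of 4 called), erythrocyte markers 1.11 (1 of 5 called), macrophage markers 0.68 (0 of 4) and skeletal muscle fibre markers -0.59 (5 of 8). The part of transcript length or of cell content in these calls was not tested.

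**Figure D5:**
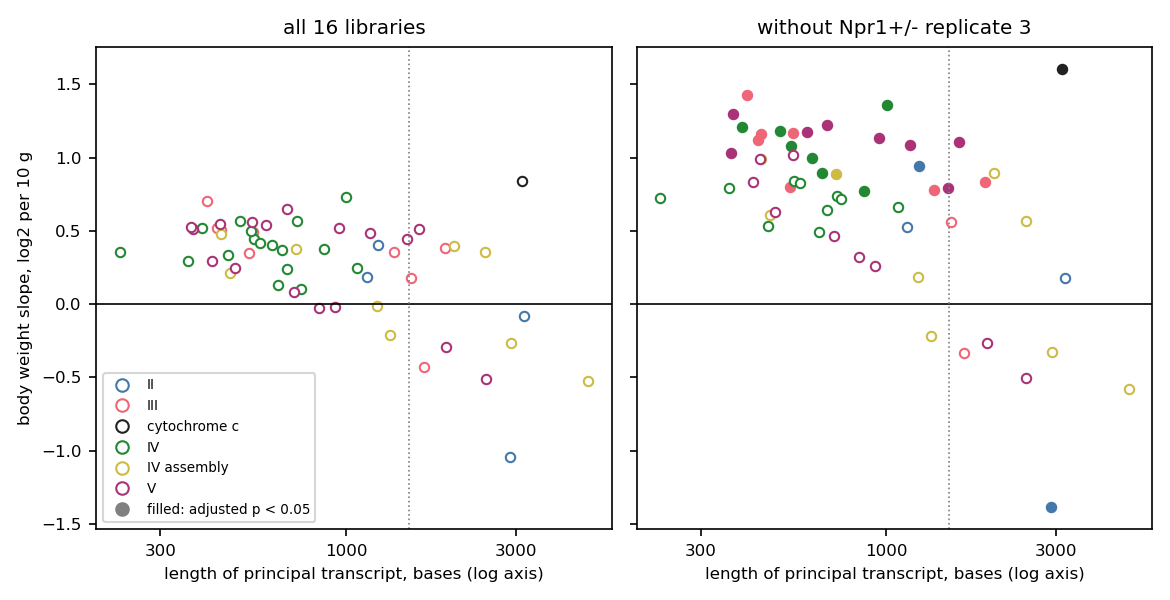
Body weight slope of each member (log2 per 10 g) against the length of its principal transcript (log axis) with all 16 libraries and without Npr1+/- replicate 3; colours are complexes and filled points passed the adjusted threshold. With all libraries 0 members passed, and without that library 27 did; Sdha lies lowest and Cycs highest in the fit without it, and most members past the dotted line at 1500 bases lie lower than the shorter ones.

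Cage, the remaining term, gave 0 members past the adjusted threshold, beside 4 of 14331 genes (0.0279%), and 0 members at an unadjusted p under 0.05, beside 7.36% of all genes. By DESeq2's likelihood ratio test 0 members and 78 genes passed. The smallest p among members was that of Sdha (edgeR p = 0.0523, adjusted p = 0.656), whose mean was 775 CPM in cage 675, 487 in cage 676, 706 in cage 677 and 732 in cage 678. Its level was thus lowest in the cage with 3 Npr1+/- mice and 1 Npr1+/+ mouse. The smallest p-values in the other complexes were those of Uqcrb (p = 0.169 by edgeR), Cox6c2 (p = 0.128 by edgeR), Cox16 (p = 0.320 by edgeR) and Atp5s (p = 0.175 by edgeR). Without Npr1+/- replicate 3, 2 members passed, Cox7c and Atp5k, beside 6.08% of all genes.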

How the data were processed

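Skeletal muscle mRNA of 16 mice was sequenced as read pairs of 52 bases. Per the study's methods, the authors mapped reads to GRCm38 with STAR 2.7.2b and counted fragments with both ends aligned on GENCODE M24 genes with featureCounts, for which the labels give version 1.6.4. The authors deposited raw counts per gene with a gene length, and no normalization. Of 55471 identifiers, 55230 were paired with symbols through GENCODE M21. Coordinates of genes are those of the deposited table. The methods name a stranded Illumina protocol and the labels a Tecan kit, so whether strand was used in counting is unsure.

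Members and lists were chosen with earlier results of these data known. The rule named, per complex, the members highest and lowest per length and those with the smallest p in each comparison, all isoforms, and 2 assembly factors outside the symbols.

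Genes were kept with filterByExpr, TMM was used for scaling, and edgeR 4.0.16 in R 4.3.3 gave the tests (glmQLFit, robust = TRUE, legacy = TRUE) on genotype label, cage and body weight, with Benjamini-Hochberg adjustment and a threshold of 0.05. Each library is labelled as 1 mouse, and p-values measure the spread between these mice. On simulated data with 200 changed genes, 180 were called for the label (14151 genes), 146 for body weight (14170 genes) and 152 for cage (14147 genes), with 11, 8 and 6 unchanged genes. The planted changes were larger than any member's fitted label difference or body weight slope in the main fit, and genes were simulated independently. These counts therefore do not give the power for the members. Isoform shares were compared by exact permutation.

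Library totals of 15273472 to 59682677 counts limit precision, and 3 counts equal 0.0503 to 0.196 CPM, for counting error only. Alternatives were other covariates, a replicate block, RLE and library size scaling, other filters, DESeq2 1.42.0, limma-voom (limma 3.58.1), edgeR 4 dispersion settings, length correction, thinning and leaving out each mouse. A length correction with principal transcripts, levels and isoform shares by their length, the block for body weight and the fit without 4 libraries were added after seeing the data. Principal transcripts are the shortest of those ranked first by APPRIS in GENCODE M21. All 16 libraries entered the main fits.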

Additional observations from a re-analysis of the deposited data

Results flagged for a closer look

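In 58 sets of values (the means of the 6 classes of members and of all members, 8 isoform shares and the CPM of the members with the smallest p-values, each within the 10 Npr1+/- or the 6 Npr1+/+ libraries), 7 had a highest library whose gap to the next exceeded the critical value of Dixon's test. Chance gives about 1 in 20 for sets fixed beforehand and independent of each other. These sets were partly picked by p-value and moved together, so 7 of 58 cannot be read as an excess.

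Npr1+/+ replicate 1 stood apart in 4 of these 7, which are 3 genes, since Cycs is the only member of its class and enters in 2 forms. For Cycs its CPM was 692 with the next at 482, and its centred log2 level was 0.64 with the next at 0.13. For Uqcrq it was 1088 with the next at 785, and for Cox7b it was 1002 with the next at 749. Npr1+/- replicate 9 stood apart for Uqcrq, at 1633 CPM with the next at 875, and for Cox7b, at 1411 with the next at 862. Npr1+/- replicate 10 stood apart for Cox20, at 3.46 CPM with the next at 2.11.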

How the results depend on the processing

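No member was called for the genotype label under any of the 17 alternatives or the 16 fits without 1 mouse. The number of members below 0 ran from 18 to 50 without 1 mouse and was 24 without Npr1+/- replicates 5, 6, 7 and 9 together. With a block for replicate number instead of cage, the median log2 fold change was -0.31 (-0.17 with length correction) and 52 members were below 0, but 0 were called. Npr1+/- replicates 7 to 10 are alone in their blocks and add nothing to these estimates. A number shared by 2 mice names different animals. Their deviations from the group means correlated over 0.1 in 4 of 6 pairs (mean 0.12, lowest 0.0343), where pairing required this of every pair, and over 0.1 in 19 of 54 pairs with different numbers (mean -0.0132). Of the named members, Uqcrc1 turned to 0.0633 with the label alone and 0.0197 with the block, Atp5a1 to 0.0308 with the label alone, 0.0110 with cage only, 0.0128 with the block and 0.0257 with block and length correction, and Cycs to -0.0404, -0.155, -0.247 and -0.251 under the same settings. Without the 4 libraries, Cox20 turned to 0.0323 and Npr1 to -0.0690, and Npr1 ran from -0.0675 to 0.229 without 1 mouse.

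For body weight, 0 to 27 members were called without 1 mouse, and the median slope ran from 0.16 to 0.80. With the block it was -0.20 with 3 members above 0, Uqcrq at -0.25 and Cox7b at -0.0947, and without the 4 libraries -0.00762 with 26 above 0. All genes called were 26 by DESeq2. For cage, 0 to 2 members were called without 1 mouse. Differences of isoform shares in percentage points turned for Cox4i1 (-0.0346) and Cox6b1 (0.00507) with medians, and without 1 mouse ran from -0.0462 to 0.0456 for Cox4i1, from -0.0114 to 0.00233 for Cox6b1 and from -0.655 to 0.134 for Cox7a1. The cause of these changes was not tested. Labels permuted within cages allow 360 arrangements.

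Depth limits Cox6b2 and Cox20, which stand at most at 0.882 and 3.46 CPM. Sequence shared with other genes limits 18 members, and mitochondrial subunits could not be measured.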
